A study of Rattus norvegicus with 4 samples.

Results

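Genes for matrix metalloproteinases (MMPs), for the related ADAM and ADAMTS proteins and for their tissue inhibitors (TIMPs) were compared between control and Sox10-deficient cells of the rat oligodendroglial line OLN93. Members were all genes whose symbol reads Mmp, Adam or Timp followed by a digit or starts with Adamts. The rule used names alone and no measured value. It gave 75 genes, of which 61 are among the 17327 symbols counted in each library and 14 are listed solely among the 26404 genes of the authors' table of means. By family they are 22 MMP, 26 ADAM, 18 ADAMTS, 5 ADAMTS-like and 4 TIMP genes, with 21, 20, 13, 3 and 4 of them among the counted symbols.

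OLN93 is a spontaneously immortalized line with features of oligodendrocyte precursor cells (OPCs), and all cells were grown in the same serum-containing medium. Libraries came from 2 controls, which carry Sox10 and are described in the study's methods as clones, and from clones A and B, in which Sox10 was inactivated by CRISPR/Cas9 with a different guide RNA for each clone. The comparison asks which genes depend on Sox10, a transcription factor of the whole oligodendroglial lineage. Each library of the Sox10-deficient (Sox10ko) group is a single edited clone, so that a trait of a clone and the loss of Sox10 cannot be told apart within 1 library, and p-values measure the spread among these 4 libraries only.

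MMPs are zinc-dependent endopeptidases that are made as inactive proenzymes and cut collagens, laminins, proteoglycans and cell-surface proteins, and the membrane-type members are tethered to the cell that makes them. Most catalytic ADAMs are membrane-bound sheddases that release the outer parts of receptors, ligands and adhesion molecules, whereas ADAMTS enzymes are secreted and several of them cut the proteoglycans aggrecan, versican and brevican. ADAMTS-like proteins lack the protease domain, and TIMPs block MMPs and, for some of them, ADAMs. In the oligodendroglial lineage, such enzymes are known for their part in process outgrowth, migration and the clearing of inhibitory matrix after injury.

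The deposited counts were few. Those of a library summed to between 60951 and 104017, of which the members took 201 and 367 for control 1 and control 2, and 292 and 337 for clones A and B. This was at most 0.378% of the counts of a library. A floor of 3 counts, which covers counting error only, corresponded to between 29.0 and 48.2 normalized CPM, the counts scaled to a common library size, in a library. Counts of Sox10 were 28 and 64 for the control libraries, 0 for clone A and 14 for clone B, so that residual Sox10 counts were present in 1 of the 2 clones. The log2 fold change of Sox10 was -2.74 with a standard error of 0.62 (edgeR's quasi-likelihood test, adjusted p = 0.0172), and leaving out clone A or clone B moved it to -1.75 or -8.51, the latter with no Sox10 count left in the Sox10ko group. The call was lost without clone A (adjusted p = 0.0695), without control 2 (0.447), with the replicate number as a block (0.125) and in DESeq2 (1.000). Of the oligodendroglial markers, Pdgfra (23, 38, 31 and 44 counts in control 1, control 2, clone A and clone B) and Cnp (62, 68, 35 and 20 counts) were detected in all libraries, whereas Mag was at 0 in each. In the same order of libraries, Olig1 had 12, 1, 0 and 0 counts and Olig2 had 7, 0, 0 and 0. Of the 7 tested genes of this list of 13, 2 were called lower, against 2.50% of all tested genes. They were Sox10, the edited gene itself, and Cnp (log2 fold change -1.36, edgeR, adjusted p = 0.0331). The median log2 fold change of the 7 was -0.48, with Pdgfra (0.22) and Cspg4 (0.93) above 0. Mog, 1 of the 7, had 12, 18, 13 and 11 counts although its authors' mean is 0, as is that of Olig2.

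The counts also had to be read against the means in the authors' table, which come from the same libraries and sum to 19320879 over all genes. The deposited counts are therefore few against that table, though not for every gene. For Mmp24, the mean count of a library was 517% of its authors' mean, which is 6. Whether the counts are a subset of the reads, reads of the opposite strand or both is not given in the sources used here and was not tested. Each count below, and each 0, is a statement about these deposited counts and not about the full sequencing depth. Over 5402 genes with an authors' mean of at least 500, the mean count of a library was 0.384% of that mean at the median, with the 5th and 95th percentiles at 0.128% and 1.19%, and 43 genes lay at 10 times the median or more. Of the 14 counted members with such a mean, all lay between 0.737 and 8.18 times the median. In contrast, Mmp2 and Timp3, with lower authors' means, lay at 40.9 and 57.0 times the median, and Mmp24 lay at 1346 times. Mmp21 had counts although its authors' mean is 0. These 4 genes, each with more than 3 counts in a library, are called members with excess counts here. All libraries came from a stranded kit, and the strand setting of the counting is not given in the sources used here. Of the 4276 genes with a mean of at least 500 and a place and strand in RefSeq, 28.1% overlap a gene on the opposite strand, and of the 37 among them at 10 times the median or more, 75.7% do. The part of opposite-strand reads in the member counts was not tested, and reads of a gene and of its opposite-strand neighbour cannot be told apart here.

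**Figure D1:**
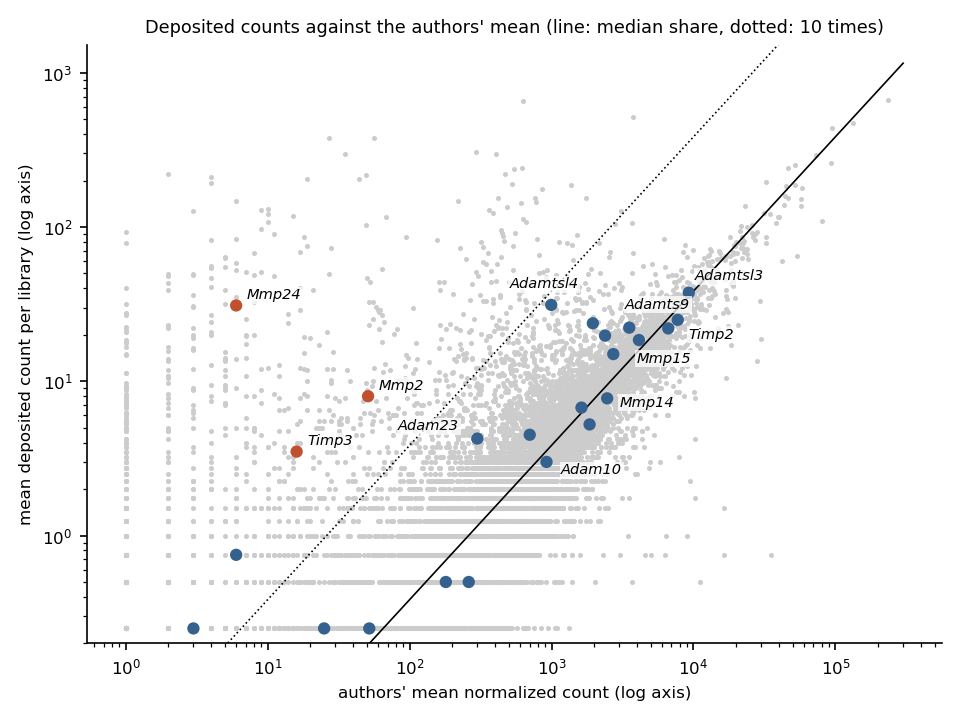
Mean count of the 4 libraries (vertical, log axis) against the authors' mean normalized count (horizontal, log axis) for each gene that has both above 0, with members drawn large and a selection of them named. The solid line marks the median share of 0.384% and the dotted line 10 times that share. Mmp24, Mmp2 and Timp3 (red) lie above the dotted line, as do a few members with at most 3 counts, whereas all members with an authors' mean of at least 500 lie below it. Mmp21, with an authors' mean of 0, and members absent from the authors' table are not drawn.

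Of the 61 counted members, 33 had no read in any library, which is 54.1% of the members against 42.1% of all symbols. A further 8 had between 1 and 3 counts at most, and 20 had more than 3 counts in at least 1 library. Enough counts for a test were present for 10 members, that is 16.4% against 14.1% of all symbols, and these were Mmp15, Mmp19, Mmp24, Adam17, Adam19, Adamts7, Adamts9, Adamtsl3, Adamtsl4 and Timp2. In edgeR's quasi-likelihood test over 2438 genes with Benjamini-Hochberg adjustment and a change of at least 2-fold, Mmp15 and Adamts9 were lower in the clones, and no member was higher. Among all tested genes, 2.50% were called lower and 1.11% higher. With the unadjusted p, the same 2 members were lower and 1, Mmp24, was higher, against 6.97% and 4.63% of all tested genes. The median log2 fold change was 0.35 over the 10 tested members and -0.01 over all tested genes. Counted by libraries alone, 3 tested members were lower in both clones than in both controls (Mmp15, Adamts9 and Adam19), against 21.5% of all tested genes, and 5 were higher (Mmp19, Mmp24, Adamts7, Adamtsl3 and Timp2), against 21.6%.

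Mmp15 encodes a membrane-type MMP, also known as MT2-MMP, that sits on the cell surface and can activate the proenzyme of Mmp2. The control counts of Mmp15 (ENSRNOG00000012622) were 22 and 48, clone A had 4 and clone B had 0, equal to 353, 465, 46.3 and 0 normalized CPM. Both controls were far above both clones, and the groups did not overlap. The log2 fold change was -4.09 with a standard error of 0.66, and the adjusted p was 0.00107 in edgeR's quasi-likelihood test. Because clone B was at 0 and clone A barely above the floor, the size of the decrease is poorly bounded. The ratio of the pooled control counts to the pooled clone counts, scaled to depth, was 18.5, with an exact interval of 6.90 to 69.6 that covers counting error only. The clone with 14 Sox10 counts was the one without Mmp15 counts, but counts of Sox10 transcripts do not measure Sox10 protein. The study describes Sox10 as inactivated in both clones. Their Mmp15 counts of 4 and 0 lie near or under the floor and do not rank the clones.

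Adamts9 encodes a secreted protease that cuts versican and aggrecan. For Adamts9 (ENSRNOG00000023257), control counts of 31 and 41 stood against 7 for clone A and 10 for clone B, or 498 and 397 against 80.9 and 113 normalized CPM. Again both clones were below both controls, but unlike Mmp15 the transcript was still detected above the floor in each clone. The controls averaged 447 ± 71.4 CPM and the clones 97.2 ± 22.9 CPM (SD, n = 2 each). This gave a log2 fold change of -2.17 with a standard error of 0.43 (edgeR, adjusted p = 0.00659). The pooled ratio of controls to clones was 4.47, with an exact counting interval of 2.61 to 8.09. In RefSeq, 3 uncharacterized genes overlap Adamts9 on the opposite strand, and its share of the authors' mean was 1.64 times the median. Leaving out 1 library ended the call of Adamts9 for control 2 (adjusted p = 0.153) and for clone A (adjusted p = 0.0617), and that of Mmp15 for control 2 (adjusted p = 0.286).

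The start regions of both genes and of Timp2 are shown, the first pair because they are the called members and Timp2, which was not called, as the inhibitor with the most counts. The sequences are RefSeq windows on assembly GRCr8, whereas the reads were counted on rn5, and they run from 250 bases before to 50 bases after the annotated start. Capitals mark matches to the motifs searched on both strands, here the GC box GGGCGG, which appears as CCGCCC where it lies on the other strand, and the Sox motif ACAAAG. Each window lies on the minus strand and is written 5′ to 3′ in the direction of the gene, at chr19:9690951-9691250 for Mmp15, chr4:127019827-127020126 for Adamts9 and chr10:104089165-104089464 for Timp2.
Mmp15: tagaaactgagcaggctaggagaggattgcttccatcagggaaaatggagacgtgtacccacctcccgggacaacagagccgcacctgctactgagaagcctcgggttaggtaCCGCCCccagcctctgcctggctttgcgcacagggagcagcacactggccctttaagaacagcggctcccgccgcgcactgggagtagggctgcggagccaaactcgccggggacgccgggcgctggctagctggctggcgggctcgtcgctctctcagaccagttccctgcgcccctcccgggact
Adamts9: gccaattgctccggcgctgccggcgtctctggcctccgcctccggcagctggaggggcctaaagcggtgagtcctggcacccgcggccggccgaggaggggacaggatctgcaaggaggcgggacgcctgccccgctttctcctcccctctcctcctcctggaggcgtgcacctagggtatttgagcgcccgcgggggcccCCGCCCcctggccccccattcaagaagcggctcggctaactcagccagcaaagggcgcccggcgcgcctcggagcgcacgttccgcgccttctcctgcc
Timp2: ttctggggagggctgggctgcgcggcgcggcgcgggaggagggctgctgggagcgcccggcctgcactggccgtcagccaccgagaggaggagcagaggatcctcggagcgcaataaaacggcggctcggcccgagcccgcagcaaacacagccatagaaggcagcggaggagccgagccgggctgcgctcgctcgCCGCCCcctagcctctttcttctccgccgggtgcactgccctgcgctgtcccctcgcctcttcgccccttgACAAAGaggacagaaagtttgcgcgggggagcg
All 3 windows are rich in G and C, at 65.0%, 72.3% and 70.3% against a median of 52.7% over the 24206 promoters of the table. Neither Mmp15 nor Adamts9 holds one of the Sox motifs ACAAAG and ACAATG in this window, and Timp2 holds ACAAAG. A missing match says only that these letters are not in the window, and sites farther away were not searched. The study lists Mmp15 and Adamts9 among its candidate Sox10 targets in OPCs. That list rests on lower expression in these same cells and on Sox10 binding nearby in the central nervous system.

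Of the 75 members, 50 had a promoter entry, 9 of them tested members (Mmp19 had none). The GC box occurred in 25 of the 50 member promoters against 35.9% of all promoters, and in 8 of the 9 tested members. ACAAAG occurred in 10.0% of member promoters and 18.2% of all, and ACAATG in 12.0% and 12.8%. The AP-1 motif TGANTCA, which Fos and Jun proteins bind, was present in 9 of the 50 member promoters and 7.33% of all, and the TATA box TATAAA in 34.0% and 14.3%. Of the 9 members with an AP-1 motif, 7 are MMP genes, among them Mmp1, Mmp3, Mmp10, Mmp12 and Mmp13. Members with AP-1 and TATA motifs were mostly without counts: 7 of the 8 counted members with AP-1 and 12 of the 15 with a TATA box were at 0 in every library, against 5 of the 20 with a GC box. Several of these MMP genes are known neighbours in 1 cluster and related in sequence, so their promoters are not independent observations.

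**Figure D2:**
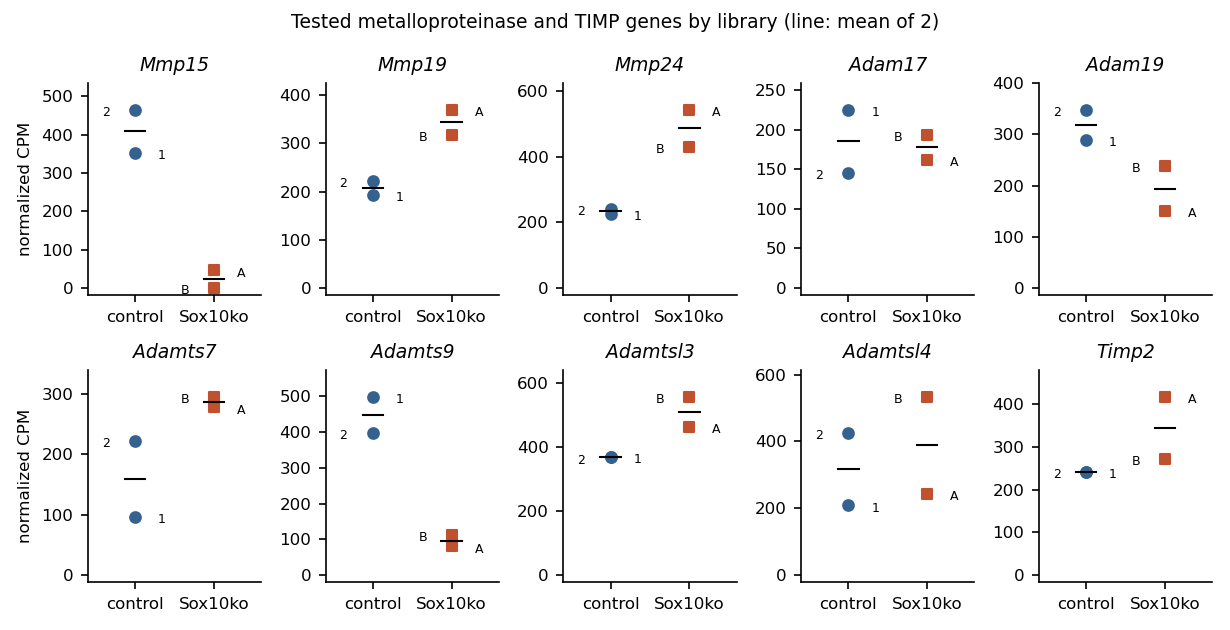
Normalized CPM (vertical, linear axis from 0) of the 10 tested members in control libraries 1 and 2 (circles) and Sox10ko clones A and B (squares), with a line at the mean of the 2 libraries of a group. For Mmp15 and Adamts9 both clones lie at 113 CPM or less and both controls at 353 CPM or more. For Adam17 and Adamtsl4 the groups overlap.

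Mmp14 (ENSRNOG00000010947), which encodes MT1-MMP, the main cell-surface activator of pro-Mmp2 and itself a collagenase, had 5, 3, 8 and 15 counts in control 1, control 2, clone A and clone B. It had too few counts for the test, and both clones lay above both controls. Its mean was 54.7 ± 36.2 CPM in the controls and 131 ± 54.9 CPM in the clones (SD, n = 2 each). The pooled ratio of clones to controls was 2.73 with a counting interval of 1.18 to 7.05. A direct test of a difference in response between Mmp14 and Mmp15 was not made.

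Mmp24 encodes MT5-MMP, a membrane-type enzyme best known from neurons. Counts at Mmp24 (ENSRNOG00000047028) were 14, 25, 47 and 38 in control 1, control 2, clone A and clone B, or 225, 242, 543 and 431 CPM. Both clones were above both controls, with means of 487 ± 79.6 and 233 ± 12.1 CPM (SD, n = 2 each). The log2 fold change of 1.05 (standard error 0.35) had an unadjusted p of 0.00832 in edgeR's quasi-likelihood test but missed the adjusted threshold (adjusted p = 0.124). The authors' mean of Mmp24 is 6, and the gene overlaps Mmp24os in RefSeq, a gene named as its opposite strand, so that reads of the pair cannot be told apart here. The remaining membrane-type genes Mmp16 and Mmp17 were at 0 in all 4 libraries, with an authors' mean of 1 for Mmp17.

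Among the secreted MMPs, Mmp19 was the only tested member. It encodes a secreted protease of basement membrane proteins. Control counts of Mmp19 (ENSRNOG00000006778) were 12 and 23, and clones A and B had 32 and 28, equal to 193, 223, 370 and 318 CPM. The clones were higher and did not overlap the controls (344 ± 37.1 against 208 ± 21.2 CPM, SD, n = 2 each), but the log2 fold change of 0.71 with a standard error of 0.39 did not pass the test (edgeR, adjusted p = 0.437). Mmp2, a gelatinase, had 4, 21, 7 and 0 counts, so that the groups overlapped, and an authors' mean of 51. Mmp21 had 0, 1, 4 and 6 counts, a pooled ratio of clones to controls of 9.48 with a counting interval of 1.35 to 411, and an authors' mean of 0. Both belong to the members with excess counts and were not tested.

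Most classical secreted MMPs had no deposited count, which, given the doubt about how these counts were made, does not show that their transcripts are absent. The collagenases Mmp1, Mmp8 and Mmp13, the gelatinase Mmp9, the stromelysins Mmp3 and Mmp10, the matrilysin Mmp7, the elastase Mmp12 and Mmp20, Mmp27 and Mmp28 were at 0 in all 4 libraries. In the authors' table, the means of Mmp9 and Mmp13 are 2 and 6. Mmp11, another stromelysin by name, and Mmp23 had counts in clone B alone, 2 and 3 respectively. In all, 13 of the 21 counted MMP genes were at 0.

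Adam10 and Adam17, the best known sheddases, process Notch receptors, cytokines and growth factor precursors. Adam17 (ENSRNOG00000007503) had 14, 15, 14 and 17 counts in control 1, control 2, clone A and clone B, or 225, 145, 162 and 193 CPM. Both clones lay between the controls. Its log2 fold change was -0.02 with a standard error of 0.48 (edgeR, unadjusted p = 0.972, adjusted p = 0.999). Adam10 had 3, 4, 2 and 3 counts, and the pooled ratio of clones to controls was 0.677 with a counting interval of 0.169 to 2.48.

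Adam19, a sheddase of neuregulins, was counted 18 and 36 times in control libraries against 13 and 21 times in clones A and B. In CPM, the controls (289 and 348) were above the clones (150 and 238) without overlap. The log2 fold change of Adam19 (ENSRNOG00000042980) was -0.72 with a standard error of 0.41, which did not pass the test (edgeR, adjusted p = 0.460). Adam9 and Adam15, also catalytically active, were too low for the test. Adam9 had 5, 1, 10 and 5 counts and Adam15 had 4, 5, 9 and 9, with pooled ratios of clones to controls of 2.37 (counting interval 0.869 to 7.46) and 1.90 (0.809 to 4.79). For Adam15, the clones at 103 ± 1.42 CPM lay above the controls at 56.3 ± 11.2 CPM (SD, n = 2 each), but the counting interval of the ratio includes 1.

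Adam23 was the member absent from both controls and present in both clones. It encodes a membrane protein without protease activity that binds integrins and Lgi proteins at neuronal surfaces. Adam23 (ENSRNOG00000012424) was at 0 in both controls, with 8 counts for clone A and 9 for clone B, or 97.3 ± 6.75 CPM in the clones (SD, n = 2). Measured against the floor of 3 counts per control library, the clone mean was at least 2.52-fold higher. It did not reach the count filter and so was not tested with the other members, and without any filter it was the single member called higher (edgeR, adjusted p = 0.0274), against 0.439% of the 10024 genes then tested. The members called lower in that fit were Mmp15 and Adamts9, against 0.698% of all genes. Its counts were 3.69 times the median share of the authors' mean, which is 300.

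Of the remaining ADAM genes, 11 of 20 counted genes were at 0, including Adam2, Adam3a, Adam5, Adam7 and Adam30, which are known from the testis and epididymis, and Adam11 and Adam28. Adam1a, Adam4 and Adam32 had single reads in 1 or 2 libraries. Adam12, a sheddase of heparin-binding growth factors, is not among the counted symbols. The authors' mean for it is 7349, and no value per library was analysed here, so that no comparison between controls and clones is given.

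Within the ADAMTS family, the proteoglycanase Adamts4 resembled Adamts9 in direction but had few counts. Its counts were 7 and 8 for the controls, 1 for clone A and 2 for clone B, or 94.9 ± 24.7 against 17.1 ± 7.86 CPM (SD, n = 2 each). Both clones were at or under the floor of 3 counts. The pooled ratio of controls to clones was 5.27 with a counting interval of 1.49 to 28.4. In the fit without a filter, the log2 fold change of Adamts4 (ENSRNOG00000003538) was -2.31 with a standard error of 1.05 and did not pass (edgeR, unadjusted p = 0.0277, adjusted p = 0.539).

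Adamts7, which cuts cartilage oligomeric matrix protein and thrombospondins, had 6, 23, 24 and 26 counts in control 1, control 2, clone A and clone B, or 96.4, 223, 278 and 295 CPM. Both clones were above both controls, with control 1 standing lowest. Its log2 fold change of 0.76 with a standard error of 0.45 did not pass the test (edgeR, adjusted p = 0.492), and it was 0.34 without control 1 and 1.53 without control 2. Adamts10, a protein of fibrillin microfibrils, had 2, 3, 2 and 10 counts, with clone B alone high. Adamts12 had a single read in clone B. Adamts1, Adamts2, Adamts3, Adamts5, Adamts14, Adamts15, Adamts18 and Adamts19 were at 0, and of these Adamts1 has the highest authors' mean, 81.

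ADAMTS-like proteins bind matrix without cutting it. Adamtsl3 (ENSRNOG00000010840) was read 23 and 38 times in control libraries and 40 and 49 times in clones A and B. The controls were almost equal at 369 and 368 CPM, and the clones were above them at 463 and 556 CPM, but the log2 fold change of 0.47 with a standard error of 0.32 did not pass the test (edgeR, adjusted p = 0.573). Adamtsl4 (ENSRNOG00000049385), which binds fibrillin, had 13, 44, 21 and 47 counts, or 209, 426, 243 and 533 CPM. Control 1 and clone A were low and control 2 and clone B high, and the groups overlapped (log2 fold change 0.23 with a standard error of 0.42, edgeR, adjusted p = 0.899). Its direction reversed without control 1 (-0.16) or without clone B (-0.43). Adamtsl5 had 2 counts, both in clone B.

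**Figure D3:**
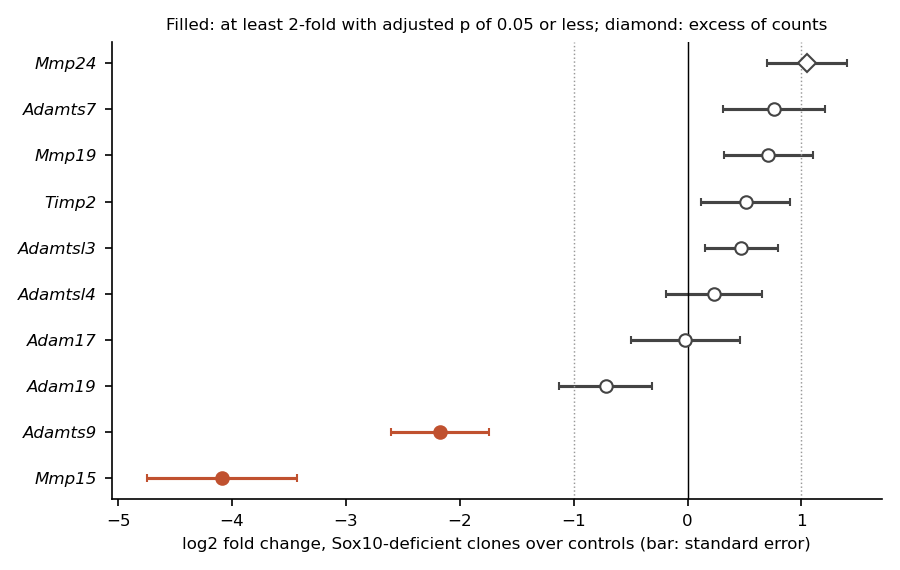
Log2 fold change of the Sox10ko clones against the controls (horizontal) for the 10 tested members, with bars of 1 standard error from edgeR's quasi-likelihood test. Mmp15 (-4.09) and Adamts9 (-2.17) are the called members, and the other 8 range from -0.72 for Adam19 to 1.05 for Mmp24.

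TIMPs bind the active sites of MMPs, and Timp2 also takes part in the activation of pro-Mmp2 by Mmp14. Timp2 (ENSRNOG00000003148) had control counts of 15 and 25, and clones A and B had 36 and 24, or 241, 242, 416 and 272 CPM. Clone A stood high and clone B lay slightly above the controls. The log2 fold change was 0.51 with a standard error of 0.39 (edgeR, adjusted p = 0.626). Cep295nl overlaps Timp2 on the same strand in RefSeq. Timp3 had 1, 2, 3 and 8 counts, belongs to the members with excess counts (authors' mean 16) and overlaps Syn3. Timp1, the inducible inhibitor, had a single read in control 1, and Timp4 was at 0.

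Summed over all 61 counted members, the controls had 3228 and 3553 CPM and clones A and B 3377 and 3821 CPM. The ratio of the group means was 1.06, and clone A lay between the controls. Sums weigh long transcripts more, and in bulk samples fewer expressing cells and less RNA per cell cannot be told apart. No test was made on sums, since an exact permutation of 2 against 2 libraries cannot reach the threshold.

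The families moved apart in their sums. For ADAMTS genes, control sums were 739 and 726 CPM and clone sums 393 and 556 CPM, so that both clones were below both controls and the ratio was 0.648. The direction depended on Adamts9: without it the sums were 241 and 329 CPM for the controls and 312 and 442 CPM for the clones, which overlapped, with a ratio of 1.32. The TIMP sum went from 273 and 261 CPM for the controls to 451 and 363 CPM for the clones, a ratio of 1.52 without overlap, and came almost wholly from Timp2 and from Timp3, a member with excess counts. MMP and ADAM sums overlapped between the groups, with ratios of 1.07 and 1.06, as did the ADAMTS-like sums with a ratio of 1.32. Without Mmp2, Mmp21 and Mmp24, the members with excess counts, the control sums were 626 and 716 CPM and the clone sums 509 and 544 CPM, which did not overlap. Its ratio was then 0.784, so that the direction of the MMP sum depended on these 3 genes. It depended on Mmp15 as well: with Mmp15 also left out, the sums were 273 and 252 CPM for the controls and 463 and 544 CPM for the clones, with a ratio of 1.92.

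Counts of MMP and ADAM genes were also set against those of TIMP genes in each library. In control 1, 102 counts of MMP and ADAM genes stood against 17 of TIMP genes, and in control 2 the ratio was 6.78 (183 against 27). It was 4.05 in clone A (158 against 39) and 4.94 in clone B (158 against 32), below both controls. The separation depended on Mmp15, which gave 22 of the reads of control 1, 48 of control 2, 4 of clone A and 0 of clone B. With Mmp15 set aside, clone B lay between the controls, so the groups overlapped. Members with excess counts enter both sides, Mmp2, Mmp21 and Mmp24 against Timp3. This ratio of reads compares genes of different length and is not a ratio of proteins.

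**Figure D4:**
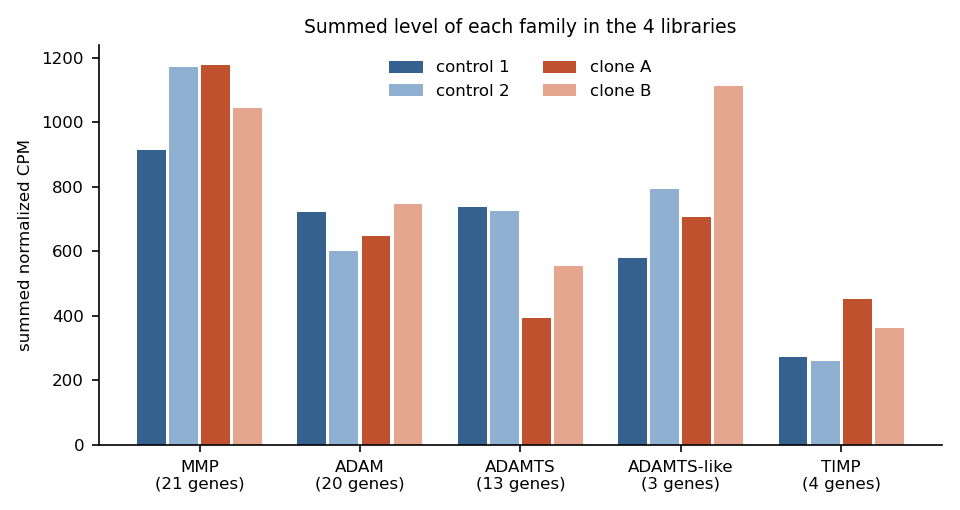
Summed normalized CPM (vertical, linear axis from 0) of the counted members of each family, with a bar for each of control libraries 1 and 2 (blue) and Sox10ko clones A and B (red). The clones lie below the controls for ADAMTS genes and above them for TIMP genes, and the groups overlap for the MMP, ADAM and ADAMTS-like sums.

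Genes around the metalloproteinases were counted from 5 lists, of activators and membrane regulators, the plasminogen activator system, matrix substrates, substrates of shedding, and AP-1 and Ets factors. Of 76 genes, 75 were counted and 27 could be tested. Of these, 2 were called lower (Ngfr and Dag1) and 1 higher (Serpine2), against 2.50% and 1.11% of all tested genes. The median log2 fold change over the 27 was -0.12.

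Serpine2, also called protease nexin 1, inhibits plasminogen activators, thrombin and plasmin, the last of which can activate pro-MMPs. Its counts rose from 103 and 220 for the controls to 351 and 338 for clones A and B, or 1654, 2130, 4059 and 3833 CPM. Both clones were above both controls, with a log2 fold change of 1.05 and a standard error of 0.25 (edgeR, adjusted p = 0.0240). The call was lost without control 1 (adjusted p = 0.177), control 2 (0.256) or clone A (0.117). It was the only tested gene of the 10 in the plasminogen activator list, and 5 of the 10 were at 0. Among the rest, Plaur (6, 5, 3 and 12 counts), Plat (3, 2, 0 and 1) and Plau (0, 0, 2 and 0), were too low for the test.

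Among shedding substrates, 11 of 22 genes were tested. Dag1, whose product dystroglycan is cut by gelatinases at its extracellular beta subunit, had control counts of 81 and 102 and clone counts of 41 and 40 (1144 ± 222 against 464 ± 14.5 CPM, SD, n = 2 each). Its log2 fold change was -1.29 with a standard error of 0.28 (edgeR, adjusted p = 0.0137), and the call was lost in DESeq2 (adjusted p = 0.0862). The log2 fold change was -1.51 without control 2, -1.31 without clone A and -1.25 without clone B, and each of these fits lost the call too. Ngfr, the p75 neurotrophin receptor and a substrate of Adam17, fell from control counts of 37 and 62 to 0 for either clone (edgeR, adjusted p = 9.75e-06), and the call was lost without control 2 (0.0875). Cdh2, a substrate of Adam10, was lower by 1.01 and Sdc1, a syndecan, higher by 1.40 on the log2 scale, with adjusted p of 0.0687 and 0.0774 in edgeR, and did not pass. Ncam1, an adhesion molecule, and App, the amyloid precursor protein, had log2 fold changes of -0.46 and -0.24 (edgeR, adjusted p = 0.461 and 0.841).

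Of the matrix substrates, 5 of 15 were tested and none passed. Vcan, which encodes versican, had 45, 55, 35 and 27 counts in control 1, control 2, clone A and clone B (log2 fold change -0.80, edgeR, adjusted p = 0.225). Fn1, encoding fibronectin, had 198, 452, 557 and 691 counts (0.91, adjusted p = 0.0687). The log2 fold change of Bgn, biglycan, was 0.54 (edgeR, adjusted p = 0.363). Values for Cspg4, the NG2 proteoglycan, were 0.93 on the log2 scale (adjusted p = 0.196), and for Tnc, tenascin C, 0.01 (adjusted p = 0.999). The summed CPM of this list was 9652 and 9448 for control libraries, below 13020 and 14050 for the clones. Much of this difference was Fn1, at 3180 and 4375 CPM for the controls and 6441 and 7836 CPM for the clones. Bgn and Cspg4 were also higher in both clones, Vcan was lower in both, and Tnc overlapped between the groups.

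None of the 7 tested activators and membrane regulators was called. The endocytic receptor Lrp1, the matrix receptor subunit Itgb1 and the hyaluronan receptor Cd44, a docking site of MMPs, had log2 fold changes of 0.41, 0.76 and -0.70, and Cd63, a tetraspanin that binds Timp1, had -0.14. Rhbdf1, an iRhom that Adam17 needs for its maturation, had control counts of 12 and 28, against 8 and 5 for clones A and B. Its log2 fold change of -1.64 with a standard error of 0.56 passed without adjustment alone (edgeR, unadjusted p = 0.00886, adjusted p = 0.128), and it is named because of this value. Of the AP-1 and Ets factors, 4 of 12 were tested and none was called, with log2 fold changes of 0.01 for Fosl1, -0.22 for Jun, 1.00 for Etv1 and 0.51 for Etv5.

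Markers of other cell types that are known sources of metalloproteinases had few counts, apart from Col1a1. Its level was 337, 329, 289 and 136 CPM in control 1, control 2, clone A and clone B. Of 8 markers of microglia and macrophages, 5 were at 0 in all libraries, among them Ptprc, Itgam and Cx3cr1, and their summed level was 80.3 and 203 CPM for control libraries, with 104 and 79.4 CPM for the clones. Much of this sum was Csf1r (4, 13, 5 and 4 counts), which has excess counts by the measure above, with an authors' mean of 13. Of 6 astrocyte markers, 4 were at 0, with sums of up to 45.4 CPM in any library. Of 8 fibroblast and perivascular markers, 4 were at 0, including Dcn and Lum, and the sums of 401 and 445 CPM for control libraries, with 335 and 193 CPM for the clones, came mostly from Col1a1 (21, 34, 25 and 12 counts). Their part in the levels of the members was not tested.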

How the data were processed

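RNA-Seq was performed by the authors on mRNA libraries of 2 control and 2 Sox10ko samples of OLN93 cells. The submitters' processing notes name STAR 2.5.1, HTSeq, DESeq2 and rat genome rn5. Raw counts of reads per gene symbol were deposited for each library without normalization. The authors' table also gives a mean normalized count over all libraries, rounded by them and treated here as a score. Its fold changes, standard errors, statistics and p-values are the authors' own comparison and were not used.

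The quasi-likelihood test of edgeR 4.0.16 in R 4.3.3 was applied to the counts after filterByExpr and TMM scaling, with condition as the single term. Benjamini-Hochberg adjustment covered all 2438 tested genes. A call needed a change of at least 2-fold and an adjusted p of 0.05 or less. Because the study's methods name no adjustment, calls with the unadjusted p were counted too. Standard errors were derived from the F statistic. Pooled count ratios have exact binomial 95% intervals scaled to library totals. On simulated data of 2438 genes, 79.0% of 4-fold and 18.1% of 2-fold changes were called, and 0.0518% of unchanged genes.

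Members and gene lists were chosen with earlier results of these data known. Members with more than 3 counts in a library were named, tested ones with their test. Of the lists, called genes and up to 4 others per list with the highest counts were named. Rhbdf1, Sdc1, Cspg4 and marker genes were named after their values were seen. DESeq2 1.42.0, other normalizations, filters, a replicate term and leaving out each library were alternatives. Promoters and gene overlaps came from RefSeq (GRCr8). Positions on rn5 and protein sequences were not used here.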

Additional observations from a re-analysis of the deposited data

Results flagged for a closer look

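For 14 members, no value per library was analysed here, and the authors' table is the single source. Of these, 7 have an authors' mean above 0, and they are given because they show transcripts of the family outside the comparison. These means pool control and Sox10ko libraries and carry no error. The highest are 7349 for Adam12, a sheddase, and 1744 for Adamts20, a secreted protease of versican. Lower means are 308 for Adamts6, 106 for Adam8 and 67 for Adam33. The ADAMTS-like genes Adamtsl1 and Adamtsl2 have means of 35 and 4.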

How the results depend on the processing

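Mmp15 and Adamts9 kept their direction under every alternative run. Both were called in edgeR with library totals alone or with the size factors of DESeq2, and without a filter. Leaving out members with excess counts, chosen after seeing the data, took genes off the count of calls without a new fit. Neither gene is such a member, so this step could not change their calls. Under a filter of at least 10 counts per library, 0 members were called lower, because Mmp15, Adamts9 and Adamts7 were not among the 1122 genes tested. With the replicate number as a block, 0 were called lower (edgeR, adjusted p = 0.0539 for Mmp15 and 0.0512 for Adamts9) and no member higher. The labels number the controls alone, and clones A and B were given the numbers 1 and 2 here. The block is thus an assumed pairing, and no label marks a shared batch or day. Deviations of same-numbered libraries correlated at 0.1215 over 2438 genes, and 2 pairs are too few to read a pairing from this value. DESeq2 called 1 member lower, Mmp15, and gave Adamts9 an adjusted p of 0.0602. Without 1 library, between 0 (control 2) and 2 members were lower, with 1 without clone A, and 0 higher. The unadjusted p (Mmp24) and the fit without a filter (Adam23) each gave 1 member higher. The cause was not tested.

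Over all genes, 61 were called lower and 27 higher. These counts were 170 and 113 with the unadjusted p, 28 and 11 with the replicate block and 28 and 8 with DESeq2. The filter of 10 counts in every library left 23 lower, and without a filter 44 were higher. Leaving out 1 library gave 2 to 70 lower and 0 to 39 higher, with 2 and 0 without control 2. Pathway genes lower numbered 4 with the unadjusted p, 1 with at least 10 counts, 1 with DESeq2 and 0 to 3 without 1 library. Pathway genes higher numbered 2 with the unadjusted p and 0 to 1 without 1 library.

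Of 97 values of single members under alternatives, 85 kept direction and call state, 6 lost the call and 6 reversed. For members not called in the main fit, this state was the absence of a call. All 6 lost calls fell on Mmp15 and Adamts9. Both lost it with the replicate block and without control 2, and Adamts9 also without clone A and in DESeq2. Adam17 reversed from -0.02 to 0.01 without a filter, 0.03 with at least 10 counts, 0.26 without control 1 and 0.11 without clone A (-0.36 without control 2). Adamtsl4 reversed from 0.23 to -0.16 without control 1 and -0.43 without clone B (0.87 without control 2). Mmp15 had a log2 fold change of -8.13 without clone A, where no clone count is left and the value depends on the prior count.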

Other observations

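Of the 33 counted members without a read in any library, 25 have an authors' mean of 0, 6 have a mean between 1 and 81 and Adam34 and Adam4l1 are not in that table. Of the 71 members in the authors' table, 34 have a mean of 0 and 16 a mean of at least 500.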
